A study of Mus musculus with 6 samples.

Results

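The respiratory chain was followed through 85 nuclear genes of the 21362 genes listed in the gene table of a mouse liver RNA-seq experiment. They were chosen by symbol alone: genes beginning with Ndufa, Ndufb, Ndufc, Ndufs or Ndufv and a digit, with Uqcr, with Cox4 to Cox8 or with Atp5, and the genes Sdha, Sdhb, Sdhc, Sdhd and Cyc1. By complex they comprise 37 genes of complex I, 4 of complex II, 9 of complex III, 18 of complex IV and 17 of complex V, the ATP synthase. A choice by symbol takes in genes whose products are not fixed subunits: Atp5sl, now named Dmac2, is a complex I assembly factor, Atp5s is a coupling factor, Cox7a2l helps to join complexes III and IV, and the product of Ndufa4 is now counted with complex IV.

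Complexes I and II pass electrons from NADH and succinate to ubiquinone, complex III hands them to cytochrome c, and complex IV gives them to oxygen. Complexes I, III and IV pump protons across the inner mitochondrial membrane, and complex V lets them flow back to make ATP. Most subunits are encoded in the nucleus and imported, and the rest come from mitochondrial DNA, so that every complex but complex II is built from both genomes. The liver draws on this ATP for gluconeogenesis, urea synthesis and other costly work, and oxidizes much of its fat through the same chain.

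The livers came from 6 male Mettl14f/f mice on a high fat diet (HFD), which began at 8 weeks of age and ran for 10 weeks before a vector was given. Livers were taken 8 weeks after the vector. In 3 mice the vector was AAV8-TBG-Cre and in 3 it was AAV8-TBG-GFP. METTL14 is the structural partner of METTL3 in the complex that places N6-methyladenosine (m6A) on mRNA, and the comparison asks which liver transcripts differ when it is deleted in adult hepatocytes. TBG is a hepatocyte promoter, so Cre can recombine the floxed alleles in hepatocytes, while the other liver cells keep them. The controls carry the same floxed alleles and received a virus as well.

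The deposited expected counts (estimated fragments per transcript) summed to between 20356440 and 21010508 per liver. Mettl14 itself was at 6.30, 6.43 and 5.81 CPM (counts scaled to a common library total) in AAV8-TBG-GFP replicates 1 to 3 and at 4.96, 5.38 and 4.86 in AAV8-TBG-Cre replicates 1 to 3. The groups did not overlap on this scale, but the difference did not pass the test (log2 fold change -0.29, SE 0.15, edgeR adjusted p = 0.337). Before normalization the counts of Mettl14 were 124, 126 and 111 against 104, 131 and 101, so that on counts alone the groups overlapped and the top value was in a Cre liver, replicate 2. The separation thus rests on the normalization factor of that liver. A transcript with a deleted exon can still be counted, and livers are therefore called by their labels. The 8 hepatocyte marker genes (Alb, Ttr and others) summed to 98845 to 117266 CPM in AAV8-TBG-GFP and 84395 to 105780 CPM in AAV8-TBG-Cre livers, so hepatocyte transcripts were abundant in all 6. AAV8-TBG-Cre replicate 2 stands apart by its normalization factor (trimmed mean of M values, TMM) of 1.18, against 0.913 to 1.02 in the other 5 libraries, and results are given below with and without it. Except where stated, CPM values carry this normalization, n is 3 mice per group, and p-values measure the spread between these mice.

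Most of the genes are abundant in liver. Per transcript length, the median level over the 79 genes with enough counts to test was 127 FPKM (fragments scaled by transcript length and library total, mean of 6 livers). Complex IV had the highest median at 226 FPKM, followed by complex V at 179, complex II at 147, complex III at 142 and complex I at 86.9. The most abundant of all was Atp5b, the catalytic β subunit of ATP synthase, at 565 ± 42.2 FPKM (SD) in AAV8-TBG-GFP and 604 ± 38.3 in AAV8-TBG-Cre livers. Cox6a1, a complex IV subunit, came next among the complexes' leaders with 538 ± 16.2 and 525 ± 20.6 FPKM. Ndufa4, placed in complex I by its symbol alone, led that group with 395 ± 25.7 and 416 ± 45.2 FPKM. Uqcr11 led complex III with 258 ± 2.92 and 235 ± 31.3 FPKM, and Sdha led complex II with 167 ± 12.9 and 146 ± 17.5 FPKM. Of the neighbours in this order, Atp5b and Cox6a1 lay within their SDs of each other in AAV8-TBG-GFP livers, and the others lay further apart than their SDs. At the low end, Cox7a1 (1.44 FPKM), Ndufa4l2 (1.53 FPKM) and Atp5s (3.61 FPKM) lay far below the rest.

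**Figure D1:**
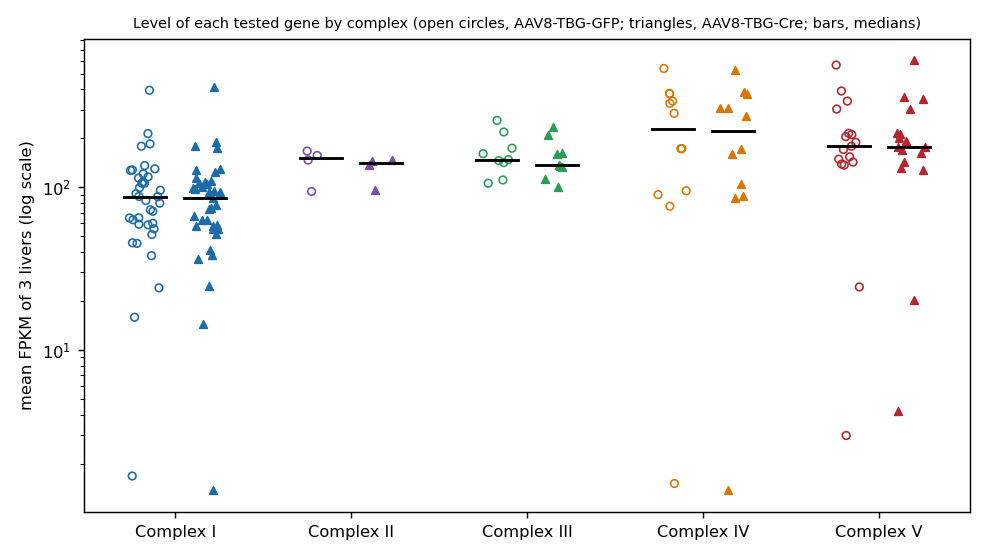
Mean FPKM of each of the 79 tested genes (vertical log axis) by complex (horizontal axis), with open circles for AAV8-TBG-GFP, filled triangles for AAV8-TBG-Cre and bars for medians over genes. Complex I genes sit lowest as a group (median of 86.9 FPKM over all livers), and 1 low gene in complex I, 1 in complex IV and 1 in complex V lie below 4 FPKM in AAV8-TBG-GFP livers.

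Some of the genes share promoter motifs, which the choice by symbol did not use. Promoter windows of 300 bases, from 250 before to 50 after the start site in RefSeq on build GRCm38.p6 (the mm10 of the submitters' processing notes), were given for 69 of the 85 genes. NRF1, a factor known to bind promoters of respiratory genes, has a palindromic motif of 10 bases, printed in capitals in the windows below, which was found in 5 of the 69 windows (7.25%) and in 1.07% of all 27025 windows. Among tested genes of any kind the share was 2.21%. The motif AAGATGGCG of YY1, searched on both strands as were the others, was found in 8 windows (11.6%) in 1.64% of all and in 3.39% of tested genes, 5 of the 8 being in complex I. The ETS motif CCGGAAGT, bound by GABPA, was in 5 windows (7.25%, against 4.31% of all and 8.70% of tested genes), and the ERR motif TCAAGGTCA was in 2 (2.90%, against 0.466% of all and 0.328% of tested genes). These are matches of letters, not shown binding sites. Median log2 fold changes (AAV8-TBG-Cre over AAV8-TBG-GFP) of tested genes with and without a motif were -0.24 and -0.18 for NRF1 and -0.19 and -0.19 for YY1. They were -0.16 and -0.20 for ETS and -0.14 and -0.20 for ERR, and a link between motif and difference was not tested.

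The 5 windows with the NRF1 motif are shown because NRF1 is a regulator known for this gene group and 1 of them belongs to a gene that fell, with 28 bases of the gene's strand and the motif in capitals. They lie at chr17:56717693-56717720 (Ndufa11, plus strand), chr9:108936669-108936696 (Uqcrc1, plus strand), chr5:115349102-115349129 (Cox6a1, minus strand), chr15:102671071-102671098 (Atp5g2, minus strand) and chr5:108434431-108434458 (Atp5k, minus strand). The motif begins 60, 162, 42 and 50 bases before the start site in Ndufa11, Cox6a1, Atp5g2 and Atp5k, and 30 bases after it in Uqcrc1.
Ndufa11: ctgcactgcGCGCATGCGCgcacgcctt
Uqcrc1: ctccgctctGCGCATGCGCagcgcggct
Cox6a1: aggaacgggGCGCATGCGCgctctcgct
Atp5g2: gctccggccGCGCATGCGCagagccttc
Atp5k: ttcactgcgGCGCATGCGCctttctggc

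The YY1 motif lies just downstream of the start site in the 5 complex I genes that hold it, 22 to 35 bases after it, and its letters include the triplet ATG. The windows are on the minus strand at chr6:126849097-126849124 (Ndufa9), chr3:51408915-51408942 (Ndufc1), chr13:114388045-114388072 (Ndufs4) and chr13:73328433-73328460 (Ndufs6), and on the plus strand at chr10:80249464-80249491 (Ndufs7).
Ndufa9: ttgtgggagAAGATGGCGgccgccgtcc
Ndufc1: ctgcggaacAAGATGGCGccgtccgtag
Ndufs4: gtttgcctacaggAAGATGGCGgcggtc
Ndufs6: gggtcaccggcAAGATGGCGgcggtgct
Ndufs7: gccgaggccAAGATGGCGgcgctggcgg

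With TMM factors, the respiratory chain genes were as a group slightly lower in AAV8-TBG-Cre livers, while few of them passed the test one by one. The difference was uneven over these livers, as given below. Of the 79 tested genes, 76 had a log2 fold change below 0 (51.0% of all 13431 tested genes did), and their median was -0.21, or 13.8% lower, against -0.006 for all genes. At an unadjusted edgeR p under 0.05 and a fold of at least 1.2, 6 of the 79 (7.59%) fell, against 8.41% of all tested genes, and 0 rose, against 12.0%. The share that fell was thus near the background, while the median lay below that of all genes. At an adjusted p under 0.05, 0 of the 79 were called lower (0.447% of all genes) and 0 higher (0.484% of all genes), the smallest adjusted p being 0.169, while 7 had an unadjusted p under 0.05. DESeq2 called 0 at its adjusted p as well, and at the unadjusted threshold 9 lower (6.55% of all its genes) and 1, Cox6b2, higher (9.61%).

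All 6 genes that fell encode accessory subunits of complex I. Ndufb3, with the NCBI gene ID 66495, was at 32.4, 38.1 and 37.2 CPM in AAV8-TBG-GFP livers and at 30.9, 22.5 and 28.6 CPM in AAV8-TBG-Cre livers, and fell by 0.39 on the log2 scale (SE 0.14, edgeR adjusted p = 0.172). Ndufb8 (67264) was at 82.9, 86.5 and 85.2 CPM and at 72.8, 56.8 and 71.2 CPM, and fell by 0.34 (SE 0.12, edgeR adjusted p = 0.169). In both, the 3 AAV8-TBG-Cre livers lay below the 3 controls, and replicate 2 was the lowest of all. Ndufb9 (66218) went from 138, 151 and 138 CPM to 125, 94.6 and 122 CPM, a drop of 19.9% (edgeR adjusted p = 0.235). Ndufb6 (230075) went from 33.7, 31.4 and 30.2 CPM to 27.2, 21.5 and 27.9 CPM, a change of -19.6% (edgeR adjusted p = 0.209). The groups again did not overlap in either gene, and the gap between them was narrower than the gap from replicate 2 to the other AAV8-TBG-Cre livers. Ndufb4 (68194) was at 64.4, 60.4 and 59.4 CPM and at 57.2, 43.4 and 49.2 CPM, and fell by 0.30 (SE 0.12, edgeR adjusted p = 0.218). Ndufa11 (69875), which holds the NRF1 motif shown above, was at 47.6, 44.7 and 43.1 CPM and at 40.9, 32.1 and 37.2 CPM, and fell by 0.30 (SE 0.12, edgeR adjusted p = 0.202). The exact two-sided permutation p of each of the 6 is 0.1, the smallest that 3 against 3 livers allow. None of the 6 remained called without AAV8-TBG-Cre replicate 2, without AAV8-TBG-GFP replicate 2 or on library totals without TMM factors, and across the 19 alternatives each was called in 7 to 13.

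**Figure D2:**
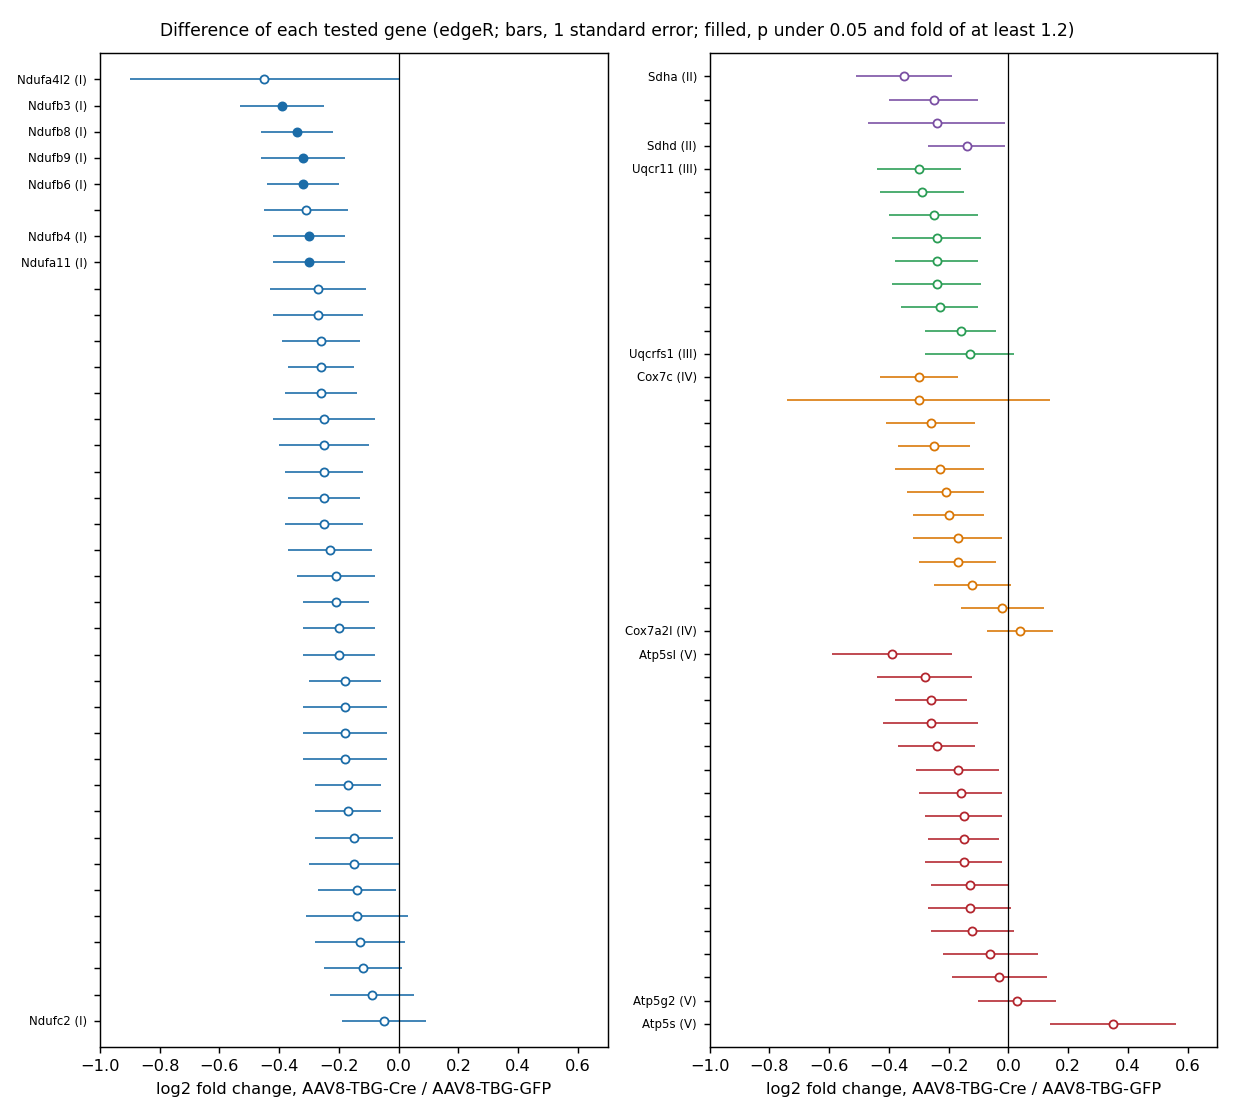
log2 fold change of AAV8-TBG-Cre livers over their controls (horizontal axis) of the 79 tested genes (vertical axis, grouped by complex, where the 6 filled genes, the lowest and highest of each complex and those above 0 are named), with 1 SE as bars and filled symbols for the 6 genes with an edgeR p under 0.05 and a fold of at least 1.2. With TMM factors 76 points lie left of 0 (51.0% of all genes do) and 3 right of it (Cox7a2l, Atp5g2 and Atp5s). Without the factors 56 lie left of it (27.5% of all genes).

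By subfamily of complex I, 5 of the 10 Ndufb genes fell (8.41% of all tested genes did) and 8 of the 10 had every AAV8-TBG-Cre liver below every control (13.0% of all tested genes). The Ndufb proteins are accessory subunits of the membrane arm, and their median log2 fold change was -0.28. On library totals 0 of the 10 were called, 1 of the 10 showed no overlap (4.39% of all genes) and the median log2 ratio was -0.12. Of the 14 Ndufa genes, 1 fell (median -0.21), and of the 11 Ndufs and Ndufv genes, which include the core subunits that bind NADH and the iron-sulfur clusters, 0 fell (median -0.25). Ndufs5 was the only other gene with an unadjusted p under 0.05, at a fold just under 1.2. At the other end of complex I, Ndufc2 was at 63.1, 66.5 and 57.4 CPM against 71.8, 50.6 and 58.2 CPM (log2 fold change -0.05, SE 0.14), with the AAV8-TBG-Cre livers both above and below the controls. Ndufa4 had a log2 fold change of -0.09 (SE 0.14). The value furthest from 0, -0.45 for Ndufa4l2, a paralog of Ndufa4, rests on 0.674 to 2.10 CPM and has an SE of 0.45.

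Complex II, succinate dehydrogenase, showed its largest difference in the catalytic flavoprotein. Sdha was at 520, 526 and 479 CPM in AAV8-TBG-GFP and 468, 329 and 398 CPM in AAV8-TBG-Cre livers (log2 fold change -0.35, SE 0.16, edgeR adjusted p = 0.264). All AAV8-TBG-Cre livers lay below the controls, but the difference did not pass the threshold. Sdhb, the iron-sulfur subunit, was at 175, 190 and 136 CPM against 187, 103 and 134 CPM, so the groups overlapped (log2 fold change -0.24, SE 0.23). The membrane anchors Sdhc and Sdhd had log2 fold changes of -0.25 (SE 0.15, no overlap) and -0.14 (SE 0.13, overlap). The median of the 4 genes, -0.24, was -0.09 on library totals.

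In complex III all 9 genes had values below 0 and 0 passed the threshold. The median was -0.24, and on library totals it was -0.08, with 8 of the 9 below 0. Uqcr11, a small subunit of the complex, was at 109, 112 and 114 CPM against 108, 75.8 and 88.4 CPM (log2 fold change -0.30, SE 0.14, edgeR adjusted p = 0.281), where the highest AAV8-TBG-Cre liver lay just below the lowest control. The Rieske iron-sulfur protein gene Uqcrfs1 was nearest to 0, with 154, 157 and 147 CPM against 159, 111 and 149 CPM (log2 fold change -0.13, SE 0.15). Cyc1, the gene of cytochrome c1, lay between them at -0.24 (SE 0.15).

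In complex IV 12 of the 18 genes could be tested, 11 of them had values below 0 and 0 passed the threshold. Cox7c was at 153, 148 and 153 CPM against 141, 105 and 122 CPM (log2 fold change -0.30, SE 0.13, edgeR adjusted p = 0.243), with no overlap. Cox6a1 was at 281, 295 and 290 CPM against 266, 231 and 257 CPM (log2 fold change -0.20, SE 0.12, edgeR adjusted p = 0.370). Cox7a2 and Cox7a2l lay nearest to 0 in the complex. Cox7a2 was at 73.6, 74.2 and 73.8 CPM against 80.2, 58.7 and 79.5 CPM, so that 2 of the AAV8-TBG-Cre livers exceeded every control (log2 fold change -0.02, SE 0.14). Cox7a2l was at 79.9, 96.5 and 88.6 CPM against 96.3, 86.5 and 90.4 CPM (log2 fold change 0.04, SE 0.11), with the groups intermixed.

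The other 6 genes of complex IV are isoforms known from muscle, lung or testis, and their low counts kept them out of the test. Cox7b2 and Cox8c were listed at 0 in every liver. Cox4i2, Cox6a2 and Cox8b reached at most 4, 9 and 4 counts in a liver, and made up at most 0.0825%, 0.124% and 0.149% of the FPKM of their pair with Cox4i1, Cox6a1 and Cox8a. None of the 6 muscle markers listed (Myh1, Ckm and others) had enough counts to test either. Cox6b2, the testis isoform of Cox6b1, had 3, 2 and 8 counts in AAV8-TBG-GFP livers and 2, 43 and 32 counts in AAV8-TBG-Cre livers. Its share of the FPKM summed over both Cox6b genes was thus 0.0536% to 0.206% in the controls, 0.0557% in AAV8-TBG-Cre replicate 1, and 1.21% and 0.807% in replicates 2 and 3. Without a filter on low counts its log2 fold change was 2.31 (edgeR adjusted p = 0.216). Cox7a1, the heart and muscle partner of Cox7a2, was tested at 0.329 to 0.733 CPM and made up 0.956% to 1.96% of the pair, with the groups overlapping.

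Complex V had the median nearest to 0, -0.15, 0.01 without TMM factors, and the gene with the highest value of the chain. Atp5a1, the α subunit, was at 1028, 1026 and 995 CPM against 931, 691 and 896 CPM (log2 fold change -0.28, SE 0.16), without overlap. Atp5b, its catalytic partner, was at 1161, 1151 and 1066 CPM against 1186, 905 and 1143 CPM (log2 fold change -0.06, SE 0.16), with 1 AAV8-TBG-Cre liver above every control. Both passed no threshold (edgeR adjusted p = 0.388 and 0.863). Atp5sl had the lowest value of the 17, with 44.7, 46.3 and 35.4 CPM against 40.5, 24.0 and 32.3 CPM (log2 fold change -0.39, SE 0.20, edgeR adjusted p = 0.314), and the groups overlapped. Atp5s had the highest, with 4.47, 4.44 and 5.13 CPM against 5.77, 4.68 and 7.46 CPM (log2 fold change 0.35, SE 0.21, edgeR adjusted p = 0.399). The c-ring of the synthase is encoded by Atp5g1, Atp5g2 and Atp5g3, whose mature proteins are the same. Atp5g2 made up 23.2% ± 0.974 (SD) of their summed FPKM in AAV8-TBG-GFP and 25.5% ± 0.976 in AAV8-TBG-Cre livers, without overlap (exact two-sided permutation p = 0.1, the smallest possible, and 1 of 3 such shares compared). The shares of Atp5g1 (25.7% ± 2.48 and 24.5% ± 0.753) and Atp5g3 (51.1% ± 1.51 and 50% ± 1.32) overlapped (exact permutation p = 0.5 each). These shares do not depend on the normalization between libraries.

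The downward difference was uneven over the 3 AAV8-TBG-Cre livers. Relative to the control mean, the median over the 79 genes was -0.05 in replicate 1, -0.46 in replicate 2 and -0.13 in replicate 3, all on the log2 scale. On library totals these medians were 0.07, -0.14 and -0.06, against 0.04, 0.02 and -0.05 in AAV8-TBG-GFP replicates 1 to 3. Replicate 1 of AAV8-TBG-Cre thus lay above every control on that scale. Replicate 2 was the lowest of the 6 libraries for 76 of the 79 genes, against 24.9% of all tested genes. Without replicate 2 the median over the genes was -0.097, and 66 of 79 lay below 0 (50.3% of all genes did). In that fit 0 were called lower (5.85% of all genes were) and 1, Atp5s, higher (8.19% of all genes). Without replicate 1 the median was -0.291, and 34 of 80 were called lower, against 12.5% of all genes, and 1 higher, against 14.8%. The latter was Cox6b2, which passed the filter on low counts there only through the livers where it is high, so that its call is no result. The 34 came unevenly from the complexes, with 19 of 37 genes in complex I, 3 of 4 in complex II, 5 of 9 in complex III, 4 of 13 in complex IV and 3 of 17 in complex V. The count of genes called therefore rests on which AAV8-TBG-Cre livers enter, from 0 to 34.

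**Figure D3:**
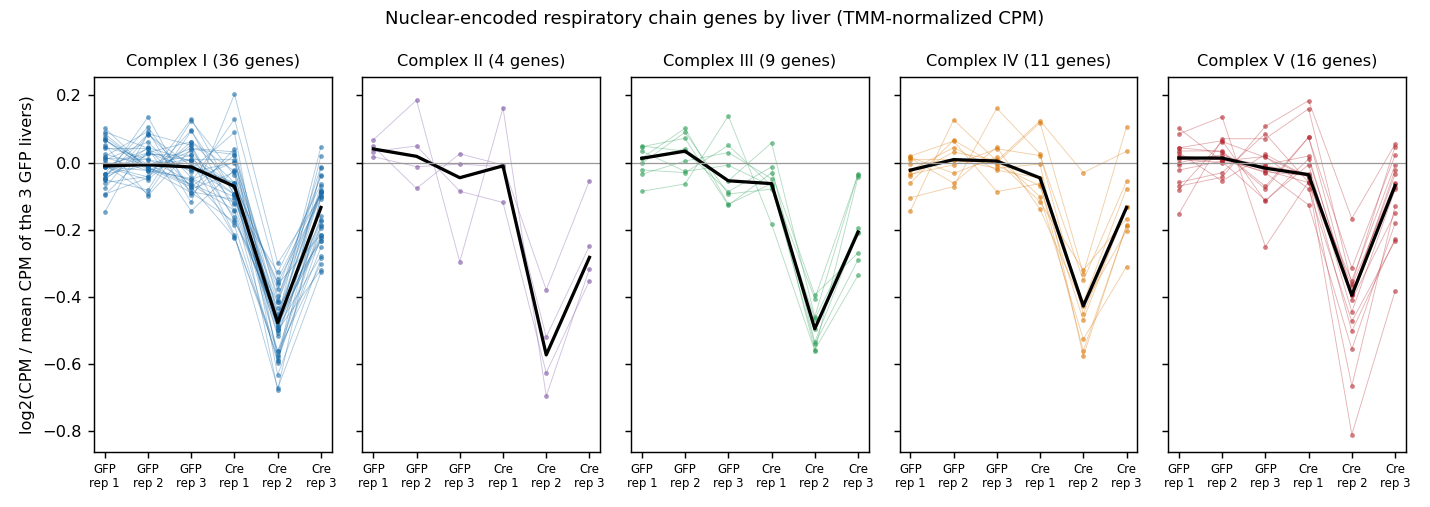
log2 ratio of each gene's CPM to its mean in the 3 AAV8-TBG-GFP livers (vertical axis) in each of the 6 livers (horizontal axis), by complex, with a thin line per gene and the median in black. Genes under a mean of 10 CPM (Ndufa4l2, Cox7a1 and Atp5s) are not drawn, and in every complex the lowest median is that of AAV8-TBG-Cre replicate 2, which has the largest TMM factor, 1.18.

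Of the 79 genes, 33 (41.8%) had all 3 AAV8-TBG-Cre livers below all 3 controls, against 13.0% of all tested genes, and 0 had them all above, against 14.0%. The number is the same without replicate 2, 33 of 79 against 15.5% of all genes, since that liver was already the lowest for nearly all of them. By complex these were 18 of 37 genes in complex I, 2 of 4 in complex II, 3 of 9 in complex III, 5 of 12 in complex IV and 5 of 17 in complex V. On CPM without normalization factors the number dropped to 3 of 79, or about the share of all genes (4.39%).

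The scale set for a library bears on these numbers. The TMM factors and plain library totals place the median log2 fold change of all genes at -0.006 and at 0.164, and in AAV8-TBG-GFP livers the major urinary protein genes alone took 4.39% to 7.45% of counts, against 1.18% to 3.19% in AAV8-TBG-Cre livers. Without the 10 most abundant genes, in a fit that again used TMM factors, the median over the respiratory chain genes was -0.215. TMM trims extreme genes in any case, so this fit cannot decide what abundant genes do to the scale. On library totals the respiratory chain genes had a median of -0.05, with 56 of 79 below 0 (27.5% of all genes were). There, 0 were called lower (2.80% of all genes) and 1, Atp5s, was called higher (19.0% of all genes). The 79 genes took 0.994% to 1.08% of all counts in the controls and 0.955% to 1.11% in AAV8-TBG-Cre livers, ranges that overlap. Relative to the median of all genes in the same fit, their median was -0.207 with TMM factors and -0.217 on library totals. A factor shifts every gene of a library by nearly the same amount, so these 2 values are alike by construction. The distance shrank by more than 1.5 times, to -0.095, without AAV8-TBG-Cre replicate 2. It was also smaller, -0.108, when transcript length entered the fit as an offset, where the median of all genes moved to -0.083 and that of the respiratory chain genes to -0.191. The median transcript length was 739 bases over the respiratory chain genes and 2820 over all tested genes, and the part of length in the difference was not tested. Replicate 2 was the lowest of the 6 libraries on library totals too in 46 of 79 genes, against 4.82% of all genes.

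**Figure D4:**
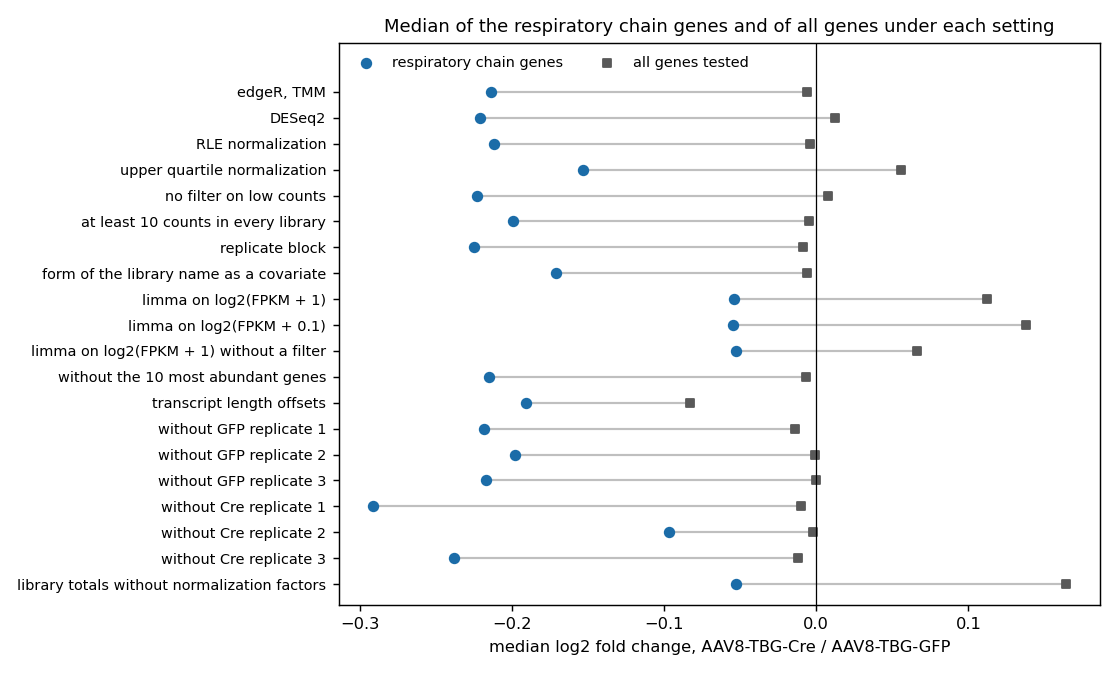
Median log2 fold change (horizontal axis) of the tested respiratory chain genes (circles) and of all genes tested (squares) under the edgeR fit with TMM factors and the 19 alternatives (vertical axis). The circles lie left of the squares throughout, by 0.207 in the edgeR fit with TMM factors, by 0.095 without AAV8-TBG-Cre replicate 2 and by 0.217 on library totals, where the circle itself lies at -0.053.

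Ratios between complexes within a liver need no scale at all. The summed counts of complex I were 0.667, 0.675 and 0.679 times those of complex V in AAV8-TBG-GFP livers and 0.654, 0.643 and 0.637 times in AAV8-TBG-Cre livers. The means were 0.674 ± 0.00614 (SD) and 0.645 ± 0.00868, and the groups did not overlap. For the 10 Ndufb genes the ratio to complex V was 0.162, 0.167 and 0.169 in the controls and 0.154, 0.154 and 0.156 in AAV8-TBG-Cre livers, so replicate 2 was no lower than replicate 1 here. The ratio of complex III to complex V was 0.344 ± 0.00491 against 0.326 ± 0.00945, also without overlap. The ratios of complex II (0.241 ± 0.00827 against 0.220 ± 0.0156) and complex IV (0.425 ± 0.0122 against 0.415 ± 0.0106) to complex V overlapped, as did that of complex I to complex IV (1.588 ± 0.0313 against 1.554 ± 0.0400). Leaving Atp5b out of complex V brought the ratio of complex I to 0.926 ± 0.00497 and 0.908 ± 0.0112, still without overlap. These ratios are descriptions, with no test, and neither they nor the Ndufb group were among the planned results. The Ndufb group holds 5 of the 6 genes that fell, and complex V had the median nearest to 0. A lower ratio of the 2 is therefore no separate result. Ndufa4 was counted with complex I in all of them.

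**Figure D5:**
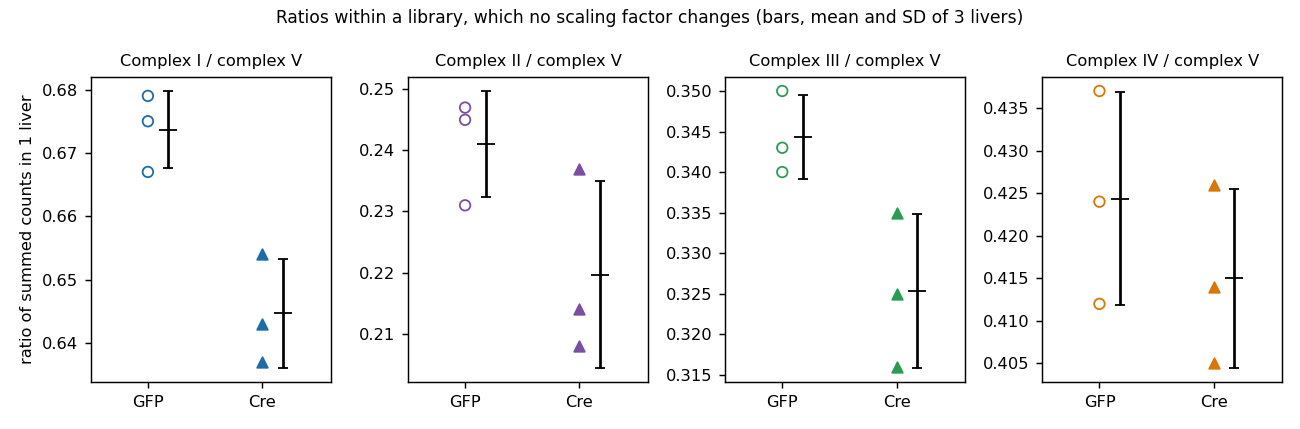
Summed counts of complexes I to IV divided by those of complex V in the same liver (vertical axes, not starting at 0), with open circles for AAV8-TBG-GFP, filled triangles for AAV8-TBG-Cre and black bars for mean and SD. The groups separate for complex I (0.674 and 0.645) and complex III (0.344 and 0.326) and overlap for complexes II and IV.

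Most of the genes, 68 of 85, are counted from 1 listed transcript, and 17 from several. In Ndufs1, the largest core subunit of complex I, the transcript of 2674 bases held 56.6% ± 1.86 (SD) of the gene's counts in AAV8-TBG-GFP and 43.7% ± 6.79 in AAV8-TBG-Cre livers. The transcript of 2778 bases held 9.99%, 6.55% and 0.0265% in the controls and 17.4%, 21.9% and 26.6% in AAV8-TBG-Cre livers. The groups did not overlap in either share, while the gene as a whole had a log2 fold change of -0.23 (SE 0.14). In Ndufs8 the transcript of 1057 bases held 9.97% ± 0.274 and 7.04% ± 1.17. Such shares are estimates that divide fragments common to several transcripts, and they were not tested. Many of these genes also have processed pseudogene copies, whose shared fragments the estimate may divide.

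The factors that build the complexes mostly lay below 0 too, with a few calls. Of 14 complex I assembly genes 2 fell, Ndufaf5 (log2 fold change -0.51, SE 0.19) and Ecsit (-0.47, SE 0.14), and the median of the list was -0.19. For complex III assembly (6 genes, median -0.23), 1 fell: Lyrm7, at 0.762, 2.35 and 1.15 CPM against 0.382, 0.493 and 0.578 CPM (log2 fold change -1.54, SE 0.48, edgeR adjusted p = 0.138). LYRM7 assists the insertion of the Rieske protein encoded by Uqcrfs1. For complex IV assembly, 3 of 21 fell: Sco2 (-0.62), a copper chaperone, Cox18 (-0.58) and Taco1 (-0.40), with a median of -0.09. Of 4 genes each for complex II and complex V assembly, 1 fell (Sdhaf1, -0.34) and 0 fell, with medians of -0.16 and -0.08. The complex V list includes Atpif1, an inhibitor of the synthase and not an assembly factor. No assembly gene rose, and none had an adjusted edgeR p under 0.05. The number of assembly genes that fell, 7 of 49, stands beside 8.41% of all genes. On library totals the medians were -0.03, 0.00, -0.07, 0.07 and 0.09 for complexes I to V, so that for complexes IV and V their sign turned. There, 2 of the 7 were still called lower, and 1 gene of the complex V list was called higher. With TMM factors only the inhibitor Atpif1 (0.43) lay above 0 in that list.

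The lists around the chain are read against the 8.41% of all tested genes that fell and the 12.0% that rose. Of 15 genes of the electron carriers 2 fell, Coq2 (-0.31) and Pdss2 (-0.44), both of ubiquinone synthesis, and 0 rose, while Cycs, cytochrome c, had a log2 fold change of -0.12 (SE 0.15). In the tricarboxylic acid cycle, which feeds the chain, Cs (citrate synthase) fell from 175, 170 and 179 CPM to 130, 138 and 145 CPM (log2 fold change -0.34, SE 0.11, edgeR adjusted p = 0.132) and Idh3g fell by 0.27. Idh2, the mitochondrial NADP-dependent isocitrate dehydrogenase, rose from 101, 76.4 and 91.6 CPM to 143, 137 and 120 CPM (log2 fold change 0.57, SE 0.14, edgeR adjusted p = 0.0825). The other 11 of 14 cycle genes did not pass the threshold. Of the 77 mitochondrial ribosomal protein genes, 4 fell and 68 lay below 0 (median -0.13). On library totals, where 2.80% of all genes fell and 19.0% rose, 0 of the 77 fell, 1 rose and the median was 0.03. The 80 tested cytosolic ribosomal protein genes differed from the respiratory chain genes in sign, with 26 higher, 0 lower and a median of 0.22. With upper quartile normalization 47 of the 80 were higher (14.3% of all genes), and on library totals 71 were (19.0% of all genes), with a median of 0.39. The median of all genes moved as well, from -0.006 with TMM factors to 0.056 and 0.164 in these 2 fits. The medians of the electron carriers (-0.13) and the cycle genes (-0.10) were near 0 and turned to 0.03 and 0.06 on library totals, where Idh2 was still called higher and 0 of both lists were called lower.

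Among 15 regulators of respiratory genes 3 fell (8.41% of all genes did) and 0 rose (12.0% of all genes), with a median of -0.07. On library totals the median turned to 0.08, with 2 called lower and 1 higher (2.80% and 19.0% of all genes). Ppara, the receptor that drives fat oxidation genes, was at 606, 615 and 572 CPM against 446, 371 and 437 CPM (log2 fold change -0.52, SE 0.14, edgeR adjusted p = 0.0970). Esrrg, an estrogen-related receptor, was at 4.47, 10.3 and 8.74 CPM against 2.00, 4.85 and 2.07 CPM (log2 fold change -1.39, SE 0.43, edgeR adjusted p = 0.136), with overlapping groups. Tfb2m, a mitochondrial transcription factor, fell by 0.33. The coactivator Ppargc1a (0.11, SE 0.16), Nrf1 (0.23, SE 0.15), Esrra (-0.07, SE 0.15) and Tfam (-0.11, SE 0.13) did not pass the threshold. The 13 subunits encoded in mitochondrial DNA were not analysed here.

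Markers of other liver cells differed between the groups as well, and their counts stand beside 12.0% of all tested genes called higher and 8.41% called lower. The 7 cholangiocyte markers (Krt19, Epcam and others) were all called higher, with a median log2 fold change of 2.50 and a sum of 49.8 to 103 CPM in AAV8-TBG-GFP against 271 to 540 CPM in AAV8-TBG-Cre livers. Their median relative to the control mean was highest in AAV8-TBG-Cre replicate 2, at 3.22, the liver with the lowest respiratory chain values. Of 7 stellate cell and fibroblast markers 4 were higher (sums of 190 to 280 and 380 to 828 CPM), and of 7 macrophage markers 4 were higher (138 to 153 and 187 to 239 CPM). Not called were Lrat (-0.25), Des (0.13) and Dcn (0.38) of the former list, and Marco (-0.75), Clec4f (0.29) and Timd4 (0.29) of the latter. The 6 endothelial markers lay the other way, all below 0 with 1 lower and a median of -0.29 (sums of 138 to 215 and 142 to 166 CPM). Of the 8 hepatocyte markers 1 was lower and 1 higher, 5 lay above 0 and the median log2 fold change was 0.09. Relative to the control mean their median was -0.02, -0.22 and 0.30 in AAV8-TBG-Cre replicates 1 to 3. The few tested markers of T and NK cells, B cells, neutrophils and adipocytes numbered 3, 1, 3 and 1. Those of T and NK cells went both ways (Cd4 -0.83, Nkg7 0.82, Cd8a 1.35), as did those of neutrophils (Ly6g -0.52, S100a9 1.48, S100a8 2.10). The B cell marker was Cd79a (1.18). Of the adipocyte list only Cidea was tested (-4.34, edgeR adjusted p = 0.033), as Ucp1, Adipoq and Plin1 had too few counts to test. Cidea had a mean of 8.97 CPM in AAV8-TBG-GFP and 0.431 CPM in AAV8-TBG-Cre livers. Whether its transcripts came from adipocytes was not tested. Adipoq went the other way, with a mean of 0.275 CPM in AAV8-TBG-GFP and 0.495 CPM in AAV8-TBG-Cre livers. The part of these cells in the respiratory chain values was not tested, and in whole liver fewer cells of a type and less RNA per cell cannot be told apart.

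The library names come in 2 forms, a short one (AAV8-TBG-GFP replicates 1 and 2, AAV8-TBG-Cre replicate 1) and a long one (AAV8-TBG-GFP replicate 3, AAV8-TBG-Cre replicates 2 and 3), whose meaning the labels do not give. Within the short form the median over the 79 genes was -0.05, with 58 below 0, and within the long form it was -0.27, with 78 below 0. Without AAV8-TBG-Cre replicate 2 the long form gave -0.12, with 68 below 0. With the form as a covariate the median was -0.171, and 2 genes were called lower, beside 8.82% of all genes. With TMM factors the sign of the median thus held within both forms, and its size did not. The short form holds AAV8-TBG-Cre replicate 1 alone of that group. On library totals the median of this liver relative to the control mean was 0.07, against 0.04 and 0.02 in AAV8-TBG-GFP replicates 1 and 2. The sign within the short form thus depended on the TMM factors.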

How the data were processed

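Liver RNA of 6 mice, 3 per vector, was sequenced, and libraries were grouped by the vector their titles name. The authors deposited an expected count for each transcript and liver, an estimate that need not be whole, and FPKM for each transcript and gene. The submitters' processing notes name HISAT2, Bowtie2, RSEM and mm10 without versions or roles, and STAR, HTSeq and DESeq2 appear in the paper's methods. Genes were chosen by symbol in the gene FPKM table, and expected counts were summed per NCBI gene ID and rounded. Libraries of a group differed beyond sampling noise in every pair (chi-square per gene of at least 24.9).

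Differences were tested by quasi-likelihood in edgeR 4.0.16 (R 4.3.3) after TMM normalization and filterByExpr, on the vector alone, over all 13431 genes that passed the filter and with Benjamini-Hochberg adjustment over them. SEs were derived from the quasi-F statistic. The edgeR fit was tested on simulated data in which randomly picked genes had large fold changes and expected levels otherwise followed library size alone. That simulation did not cover a small shift shared by many genes or libraries with unlike TMM factors. Levels between genes were compared only as FPKM. The filter kept 79 of the 85 genes. Intervals between mice are SDs, and low CPM values carry counting error as well.

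The genes and lists were chosen with earlier results of these data known. Genes are named if called, if highest, lowest or most abundant in a complex, or if they belong to a tissue isoform pair, to Sdh or to 4 regulators fixed by name. Genes named beyond this rule (Ndufs5, Cyc1, Atp5a1, Cycs and those of the motif and transcript shares) were picked with their values known. The alternatives comprised DESeq2 1.42.0, upper quartile and RLE factors, other filters, a block for the replicate number, a covariate for the short or long library name, limma 3.58.1 on log2(FPKM + 1) and log2(FPKM + 0.1), leaving out the 10 most abundant genes, transcript length offsets and leaving out each mouse. Library totals without normalization factors were added after the data were seen.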

Additional observations from a re-analysis of the deposited data

How the results depend on the processing

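The sign of the median over the respiratory chain genes held under all 19 alternatives, and so did the absence of genes with an adjusted p under 0.05, with 1 exception that is no result: without AAV8-TBG-Cre replicate 1, the liver of that group with 2 counts of Cox6b2, this gene passed the filter on low counts only through the livers where it is high, and 1 gene was thus called higher. The counts depended on the choices. Against 6 lower (8.41% of all genes), upper quartile normalization and the short or long library name as a covariate each gave 2 (5.49% and 8.82% of all genes). The limma fits on log2(FPKM + 1), on log2(FPKM + 0.1) and on log2(FPKM + 1) without a filter each gave 0 (3.01%, 3.1% and 1.97% of all genes). Library totals without normalization factors gave 0 (2.80% of all genes). Leaving out 1 mouse gave 0 to 34 lower (2, 0 and 4 without AAV8-TBG-GFP replicates 1 to 3, and 34, 0 and 6 without AAV8-TBG-Cre replicates 1 to 3) and 0 to 1 higher. In the same order, 5.35%, 5.94%, 7.88%, 12.5%, 5.85% and 6.79% of all genes were lower, and 8.19% to 14.8% were higher. Against 0 higher, DESeq2, no filter on low counts, the 3 limma fits and library totals each gave 1, which was Cox6b2 in the former pair and Atp5s in the others. Of all genes, 9.61% to 19.0% were called higher in these fits. Genes called lower without a filter (7, beside 7.04% of all genes) and with at least 10 counts in every library (6, beside 8.02%) differed little from 6.

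With limma on log2(FPKM + 1), limma on log2(FPKM + 0.1), limma on log2(FPKM + 1) without a filter and library totals alike, the median was -0.05 over the respiratory chain genes, -0.07 in complex I, -0.08 in complex III, -0.04 in complex IV (-0.02 without a filter) and 0.01 in complex V, which was thus reversed. In complex II it was -0.10 in the limma fits and -0.09 on library totals. In the same 4 fits 8 named genes turned above 0: Atp5b (0.10), Atp5g3 (0.03), Cox7a2 (0.13, library totals 0.14), Cox8a (0.04), Ndufa4 (0.07), Ndufc2 (0.10, or 0.11 with log2(FPKM + 0.1) and library totals), Sdhd (0.02) and Uqcrfs1 (0.02, library totals 0.03). On CPM without TMM factors, the log2 ratio of summed CPM was -0.06 for complex I, -0.03 for complex IV and 0.00 for complex V, against -0.22, -0.19 and -0.15 with them. Upper quartile normalization turned Cox7a2 to 0.04 and Ndufc2 to 0.01, the library name covariate turned them to 0.01 and 0.04, and transcript length offsets turned Cox7a2 to 0.00. The limma fits used FPKM, which are scaled by library total and carry no TMM factors. Those fits and the fit on library totals thus share 1 kind of scale and are not independent alternatives. The median of all genes was 0.112, 0.138 and 0.066 in the limma fits, in the order above, and 0.164 on library totals. The cause of the turned signs was not tested further.

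Leaving out 1 mouse at a time, the median ranged from -0.29 to -0.10 over the respiratory chain genes, from -0.33 to -0.11 in complex I, from -0.43 to -0.10 in complex II, from -0.34 to -0.13 in complex III, from -0.28 to -0.09 in complex IV and from -0.22 to -0.05 in complex V. In 7 genes near 0 the range crossed 0: Atp5b (-0.14 to 0.05), Atp5g2 (-0.05 to 0.12), Cox7a2 (-0.10 to 0.11), Cox7a2l (-0.03 to 0.11), Ndufa4 (-0.21 to 0.02), Ndufc2 (-0.20 to 0.06) and Uqcrfs1 (-0.23 to 0.01). Each median lay nearest to 0 without AAV8-TBG-Cre replicate 2.

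The replicate numbers do not pair the livers: same-numbered libraries deviated together with r = 0.00915, -0.263 and 0.209. With the number as a replicate block 6 genes were called lower (8.14% of all genes), 5 of them shared with the fit without it, and the median was -0.225. Over 29 named genes, 428 of the values under alternatives kept sign and side of the threshold, 46 turned sign, 20 passed the threshold newly and 56 no longer passed it. The group size of 3 sets the limit for single genes, and counts under about 10 per library, as in Cox6b2, carry large counting error.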
